A study of Mus musculus with 2 samples.

Results

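Endothelial cells line the blood vessels, and 63 barcodes of the 6319 kept in these libraries carried their transcripts although the cells had been sorted for CD45, the leukocyte surface antigen encoded by Ptprc. They were chosen by their own counts. A cell was taken where Kdr, Egfl7, Plvap and Emcn together gave at least 3 unique molecular identifiers (UMIs, tags counting single captured RNA molecules). C1qa, C1qb and C1qc together had to give at most 2 UMIs, and Cd79a and Cd3e 0. These limits were set against macrophages, B cells and T cells. They nevertheless let through 14 cells rich in leukocyte transcripts, 7 in each library, described below. The 7 female ones held 46831 of the 124584 UMIs of the female endothelial cells. The female library held 31 such cells among 3817 kept barcodes, or 0.812% (exact binomial 95% interval 0.552 to 1.15%), and the male library 32 among 2502, or 1.28% (0.876 to 1.80%). The intervals overlapped, and like every interval given here they cover counting error only. Since the genes of the rule and the cells described are the same data, the levels below are descriptions without tests.

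The study profiled live (DAPI-negative) CD45+ cells of the adrenal glands of C57Bl/6 mice aged 7 weeks by droplet 3′ RNA sequencing, with 1 library from females and 1 from males and no treatment or transgene in either group. How many animals gave each library was not stated, and with 1 library per sex the spread between animals was not measured. The libraries held 16218309 female and 9512670 male UMIs over 3963 and 2685 barcodes. The endothelial cells made up 124584 and 78645 of these UMIs, with a median of 2383 UMIs per female cell (548 to 21186) and 1840.5 per male cell (577 to 8953), against 3550.5 and 3033.5 in the other kept cells. Their median mitochondrial share was 3.23% and 3.34%. The label of the libraries by sex held in these cells. Xist, the X-inactivation RNA, gave 236 UMIs in 24 of the 31 female cells and 0 in the male cells, while the Y-linked Ddx3y, Eif2s3y, Kdm5d and Uty gave 7, 6, 5 and 2 UMIs in male cells and 0 in female cells.

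The adrenal cortex is threaded by thin, fenestrated sinusoids that run from the capsule to the medulla, so that steroid-producing cells lie against blood along their whole course. Endothelial cells of such beds sense vascular endothelial growth factor (VEGF) through Kdr (VEGF receptor 2), close their fenestrae with diaphragms built from Plvap, and carry on their surface the sialomucin endomucin (Emcn), while Egfl7 is a secreted protein of the vessel wall. Scavenger receptors and the lipid-handling proteins of capillaries vary between vascular beds, and can therefore divide endothelial cells of 1 organ.

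The genes that chose the cells lie on separate chromosomes. In mouse build mm10 (GRCm38), by the GENCODE vM21 annotation, Kdr (ENSMUSG00000062960) spans chr5:75932827-75978458 on the minus strand, Egfl7 (ENSMUSG00000026921) chr2:26580014-26593120 on the plus strand, Plvap (ENSMUSG00000034845) chr8:71497765-71511752 on the minus strand and Emcn (ENSMUSG00000054690) chr3:137341067-137432185 on the plus strand. Egfl7 contains the microRNA gene Mir126a and overlaps Agpat2 on the other strand. Plpp3 (ENSMUSG00000028517), the lipid phosphate phosphatase that was the leading gene outside the rule, spans chr4:105157347-105232764 on the plus strand. Ptprc (ENSMUSG00000026395), the gene of the sorted antigen, spans chr1:138062861-138175708 on the minus strand.

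The 250 bases before the RefSeq start are shown for 2 genes of the rule, for the leading gene Plpp3 and for Stab2, a scavenger receptor that divided the cells, since the results below turn on these genes. Sequences are from RefSeq on GRCm38.p6, 5′ to 3′ on the strand of the gene. Capitals mark AGGAAG or its reverse complement CTTCCT, letters that contain the core recognised by ETS factors, the transcription factor family of Erg and Fli1.
Emcn, chr3:137340828-137341077, plus strand: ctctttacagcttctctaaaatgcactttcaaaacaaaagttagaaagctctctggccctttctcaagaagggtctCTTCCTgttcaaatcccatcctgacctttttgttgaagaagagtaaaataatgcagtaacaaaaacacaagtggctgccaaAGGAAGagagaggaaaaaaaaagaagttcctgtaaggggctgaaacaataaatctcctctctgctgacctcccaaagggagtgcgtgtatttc
Plpp3, chr4:105157097-105157346, plus strand: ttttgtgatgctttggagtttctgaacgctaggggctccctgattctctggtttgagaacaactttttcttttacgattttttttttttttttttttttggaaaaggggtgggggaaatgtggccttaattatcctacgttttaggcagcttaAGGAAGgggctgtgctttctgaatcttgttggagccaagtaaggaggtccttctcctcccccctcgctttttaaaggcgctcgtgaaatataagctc
Kdr, chr5:75978456-75978705, minus strand: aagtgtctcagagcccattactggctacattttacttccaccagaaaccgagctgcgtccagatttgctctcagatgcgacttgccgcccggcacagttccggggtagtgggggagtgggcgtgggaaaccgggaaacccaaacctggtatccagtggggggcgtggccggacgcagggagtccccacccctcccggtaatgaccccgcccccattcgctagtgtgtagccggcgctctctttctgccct
Stab2, chr10:87007943-87008192, minus strand: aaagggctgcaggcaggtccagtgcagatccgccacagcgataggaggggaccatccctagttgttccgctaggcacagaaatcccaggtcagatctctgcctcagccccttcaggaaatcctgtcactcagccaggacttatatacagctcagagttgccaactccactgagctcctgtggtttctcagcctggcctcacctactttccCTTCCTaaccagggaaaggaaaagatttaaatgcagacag
Searched on both strands, the motif was found 2 times before Emcn, 1 time each before Plpp3 and Stab2, and 0 times before Kdr. In the other windows examined it was found 3, 1 and 0 times at the 3 starts of Egfl7, 1 time before Tie1, 0 times before Tek, 3 times before Clec4g, and 3 and 1 times at the 2 starts of Ptprc, the leukocyte gene that was low in these cells. Of the RefSeq windows of this length, 29.5% of 32851 held it, and 32.3% of 27025 genes had it in at least 1 window. It stood before 6 of 10 matched genes among the 15 leading genes (60%), before 8 of 11 of the pan-endothelial genes (72.7%), and before 122 of 297 matched genes among the 421 that were higher in the endothelial cells of both libraries (41.1%), against 1878 of 5519 genes tested (34.0%). Plvap had no entry. A match states only that these letters are present.

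Levels were UMIs summed over the cells of a group and given per 1000000 UMIs of that group (CPM). Kdr was at 1268 CPM in the female endothelial cells (158 UMIs in 30 of 31 cells) and 2238 CPM in the male ones (176 UMIs in 29 of 32), against 7.03 and 14.7 CPM in the other cells. Egfl7 was at 859 and 1450 CPM against 5.84 and 9.63, and Plvap at 1011 and 1322 CPM against 3.83 and 6.17. Emcn stood at 1501 and 1920 CPM against 4.46 and 11.1. These contrasts are set by the rule. All 4 genes were detected together in 14 female and 17 male cells, 3 of them in 10 and 7, 2 of them in 4 and 7, and a single one in 3 and 1. The sum of the 4 genes ran from 3 to 67 UMIs per female cell (median 14) and from 3 to 54 per male cell (median 13).

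At the lower edge of the rule some of the female cells carried leukocyte transcripts. The 4 female cells with exactly 3 UMIs had a median of 4.5 UMIs of 20 pan-endothelial genes that the rule did not use, and 3 of them held Ptprc. The 2 male cells at 3 UMIs had a median of 5.5 and no Ptprc. Just below, 8 female and 3 male cells had 2 UMIs, with medians of 4 and 11 pan-endothelial UMIs, and 3 of the female but 0 of the male cells held Ptprc. The exclusion genes removed 21 female and 19 male cells that had passed the 4-gene sum, of which 18 in each library exceeded the C1q limit. Their median depth was 4071 and 5229 UMIs, above that of the cells kept, and 13 and 15 of them held Ptprc.

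The label was checked against the levels of pan-endothelial genes that the rule did not use. A gene was compared where its level averaged at least 20 CPM over the endothelial and other cells of both libraries, and was called higher where the ratio, with 10 CPM added to each level, was at least 4 in both libraries. Of 6903 genes compared, 421 were called higher (6.10%) and 93 lower (1.35%). The lower count depends on 14 cells rich in leukocyte transcripts, described below, and was 338 without them. A gene near 0 CPM in the other cells could pass the level filter only by being high in the endothelial cells, and the call then largely followed from the filter. In a count added after seeing the data, of the 5642 genes that averaged 20 CPM in the other cells alone, 67 were called higher (1.19%). The 20 pan-endothelial genes passed and were called, but 1 of them, Pecam1, reached the filter in the other cells alone, so this count does not support the label. As a sum the 20 genes reached 8332 and 14000 CPM (1038 and 1101 UMIs, in 30 of 31 and 32 of 32 cells). Without the leukocyte-rich cells and 1 female cell rich in cortical transcripts, described below, the endothelial sums were 15698 and 17214 CPM. The other cells held 101 and 151 CPM. T and NK cells held 42.2 and 43.0 CPM, of which Pecam1, which leukocytes carry too, made 31.9 and 32.1 CPM. B cells held 111 and 129 CPM and macrophages 185 and 254 CPM.

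Plpp3 led the genes outside the rule. It gave 258 UMIs in 27 of 31 female cells and 271 in 29 of 32 male cells, with 2071 CPM against 9.48 (a ratio of 218, exact conditional interval 178 to 269) and 3446 against 21.3 CPM (162, 134 to 195). In T and NK cells, with a median depth of 3985 and 4359 UMIs, a Plpp3 UMI was present in 0.337% and 0.719% of cells. Such a UMI was present in 4.86% and 2.88% of macrophages and in 3.72% and 2.77% of B cells. Tek, the angiopoietin receptor Tie2, was at 441 and 687 CPM, 260-fold (161 to 429) and 148-fold (97.0 to 226) above the other cells. Tie1, its partner receptor, was at 249 and 509 CPM, 165- and 142-fold higher, and the transcription factor Sox18 at 305 and 814 CPM, 187- and 147-fold higher. The remaining leading genes were Hapln1, Col13a1, AU021092, Gpr182, Tinagl1, Ptprg, Fam167b, Btnl9, Podxl, Mmrn2 and Ltbp4. Hapln1 rested on 5 UMIs in 2 female cells and 10 in 5 male cells, and its lower bound of 117 in females was set against 0 UMIs in the other cells. Pecam1, an adhesion molecule that leukocytes carry too, was at 466 and 763 CPM against 33.2 and 29.8 in the other cells (14.0- and 25.6-fold). Cdh5, the cadherin of endothelial junctions, was at 634 and 839 CPM, 88.6- and 87.2-fold higher.

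**Figure D1:**
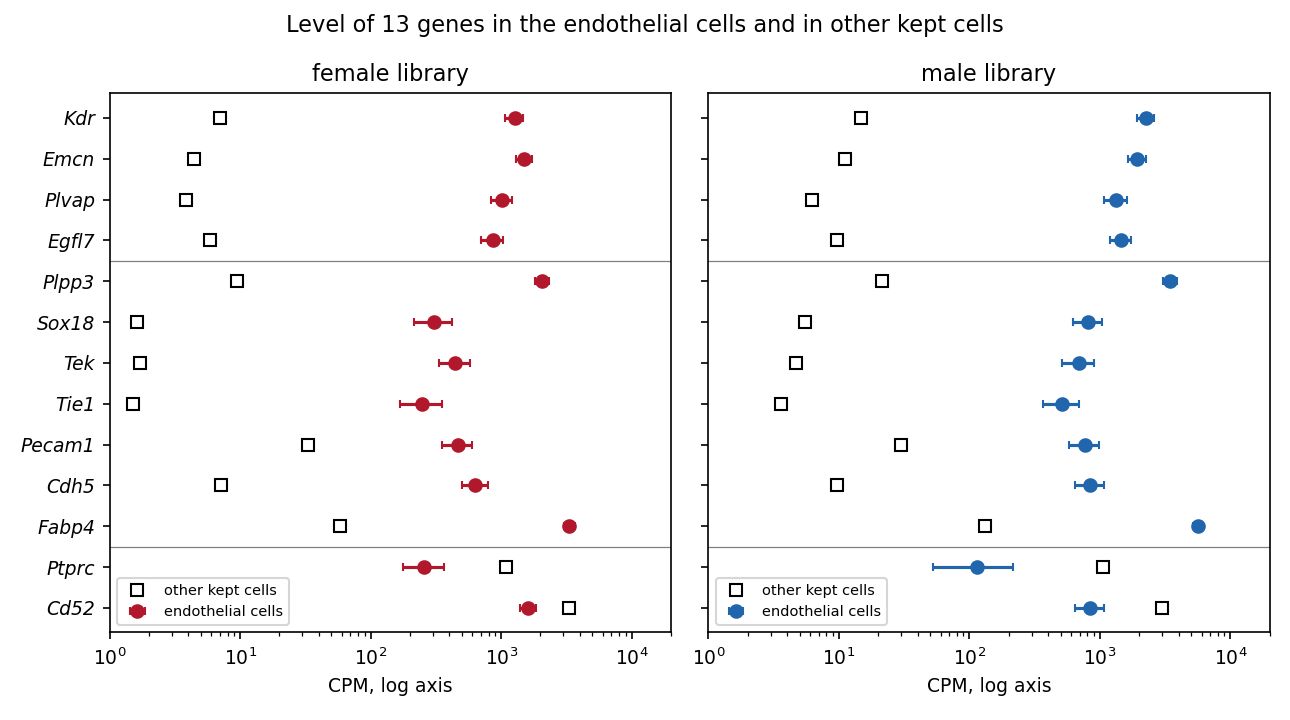
Level of 13 genes (CPM, log axis) in the endothelial cells (filled points with exact Poisson 95% intervals) and in the other kept cells (open squares) of the female and male library, with the genes of the rule above the upper line and leukocyte genes below the lower one. The endothelial genes stand apart by more than 10-fold in both libraries, from 466 against 33.2 CPM for Pecam1 in females, while Ptprc and Cd52 lie below the other cells.

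Gene lists were described by the levels of their genes. The counts of genes called that follow carry the same limit of the filter and support nothing about a list. Among junction and basement membrane genes, Sparc, a matrix-binding glycoprotein, was at 1043 and 1195 CPM against 14.0 and 26.0, and Col4a1, a main collagen of vascular basement membrane, at 570 and 674 CPM against 4.90 and 8.55. Of the 17 genes of that list 14 passed and were called, and 0 of them reached the filter in the other cells alone. In the list of fenestrae and caveolae, 7 of 8 were called higher, Plvap of the rule among them. The caveolar coat genes Cavin3 (241 and 445 CPM) and Cav1 (177 and 318 CPM) were 120- and 51.1-fold higher in females and 108- and 43.2-fold in males. Ehd4, which shapes membranes, passed the filter without being called (2.52- and 4.47-fold).

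Of 17 VEGF, angiopoietin and apelin genes 10 passed and 9 were called, among them Kdr of the rule and the receptors Flt1, Flt4, Nrp1, Nrp2, Tek and Tie1. Flt1, VEGF receptor 1, was at 835 and 1526 CPM, and Flt4, VEGF receptor 3, at 201 and 318 CPM. The co-receptor Nrp1 reached 401 and 1081 CPM against 38.0 and 56.9 in the other cells. The ligand genes gave few UMIs in these cells. Vegfa gave 6 and 2 UMIs, Vegfb 1 and 2, Vegfc 2 and 0, and Pgf 0 in both. Esm1, a proteoglycan of VEGF-stimulated endothelium, gave 14 UMIs in 4 female cells and 31 in 13 male cells. The receptors Prokr1 and Prokr2 for the vascular factor EG-VEGF of steroid-producing glands gave 0 UMIs.

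Marks of single vessel types were partial. Of 17 Notch and arterial genes 9 passed and 7 were called higher (Notch4, Dll4, Hes1, Efnb2, Gja4, Sox17 and Cxcl12), but the arterial genes Gja5, Bmx and Hey2 gave 0 UMIs in every endothelial cell. Efnb2, the arterial ephrin, gave 13 and 20 UMIs. Of 8 venous genes 3 passed and 2 were called, Nr2f2, the venous transcription factor COUP-TFII (538 and 598 CPM, 182- and 120-fold), and Ephb4, the venous receptor of Efnb2 (177 and 280 CPM). Vwf and Selp, found in larger veins, gave 0 UMIs. The 6 lymphatic genes together gave 38 and 37 UMIs (305 and 470 CPM against 13.6 and 44.6 in the other cells), nearly all of them from Flt4 (25 and 25) and Lyve1 (13 and 10), while Pdpn, Reln and Mmrn1 gave 0 and Prox1, the lymphatic master regulator, 0 and 2. Flt4 was the single one of the 6 called higher, and Lyve1 was confined to 4 female and 2 male cells described below.

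Among vasoactive genes 7 of 9 that passed were called higher. Ednrb, the endothelin B receptor, was at 353 and 559 CPM. Calcrl (393 and 381 CPM), Ramp2 (417 and 661 CPM) and Ramp3 (169 and 331 CPM), which together form adrenomedullin receptors, and the natriuretic peptide receptor Npr1 (209 and 356 CPM) were called, whereas Edn1, the ligand endothelin 1, gave 0 UMIs. Of the haemostasis genes 4 of 7 that passed were called, among them Thbd (thrombomodulin, 209 and 216 CPM) and F8 (coagulation factor VIII, 22 and 7 UMIs). In lipid handling 5 of 9 that passed were called. Fabp4, a fatty acid binding protein of capillaries, gave the highest summed UMIs of that list, 414 in 27 female cells and 443 in 28 male cells, or 3323 and 5633 CPM, 56.7- and 43.1-fold above the other cells. Gpihbp1, which anchors lipoprotein lipase to capillary endothelium, was at 538 and 1373 CPM, while the lipase gene Lpl itself was at 72.2 and 89.0 CPM, below the 169 and 304 CPM of the other cells. Apoe, which macrophages carry in abundance, was at 1116 and 2365 CPM against 7588 and 6902.

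Of the 16 genes of leukocyte adhesion and antigen presentation that passed, 3 were called higher, Icam2 (7.79- and 8.39-fold), Ly6a (4.56- and 9.69-fold) and Ly6c1 (57.7- and 80.6-fold). The MHC class I subunit gene B2m was near the level of the other cells, at 2544 and 3166 CPM against 2484 and 2683. The adhesion molecule Vcam1 gave 0 and 5 UMIs and Sele, E-selectin, 0 and 1. Of 15 transcription factor genes that passed, 6 were called (Erg, Ets2, Elk3, Sox17, Sox18 and Nfib). Fli1 and Ets1, ETS factors that leukocytes express too, were at 1.17- and 1.15-fold in females and 2.28- and 1.80-fold in males. In the TGF-beta and BMP list 6 of 12 were called, including the co-receptor Eng (482 and 712 CPM) and the BMP target Id1 (217 and 318 CPM). Sgk1, a kinase gene induced by corticosteroids, was the 1 gene of 7 that passed in the glucocorticoid list to be called, at 337 and 509 CPM, while Tsc22d3, another glucocorticoid target, was at 0.861- and 0.909-fold.

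**Figure D2:**
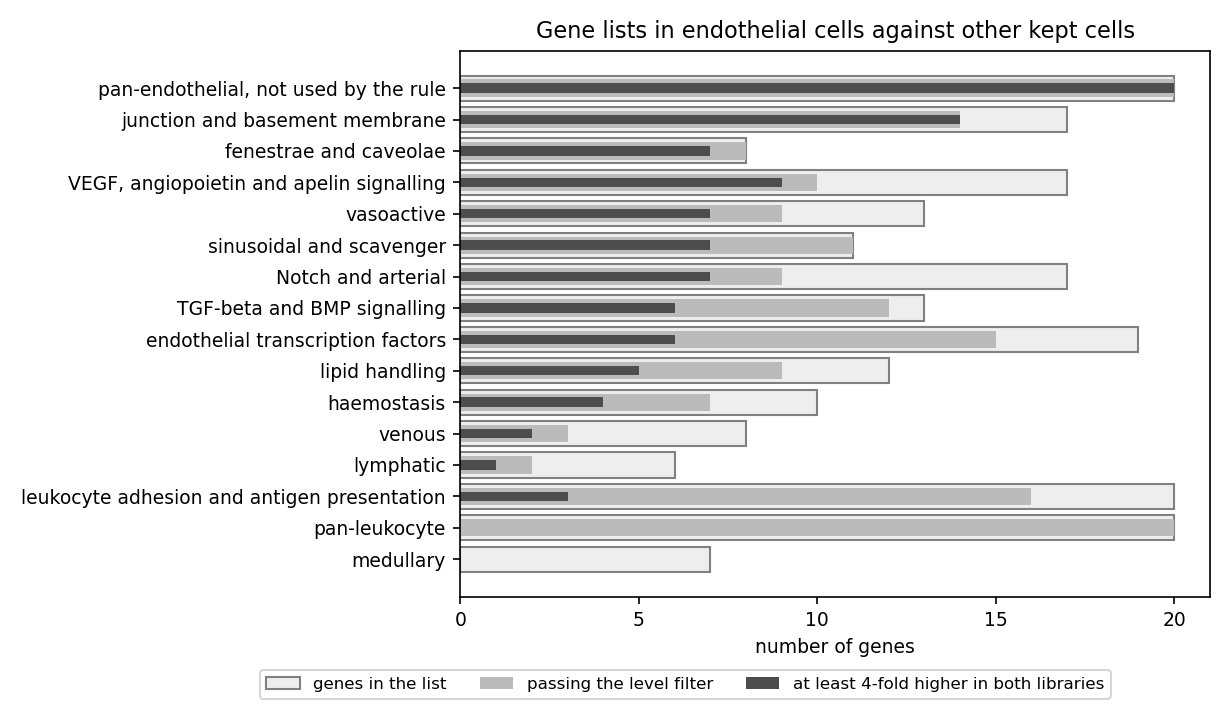
Number of genes per list (outlined bars), number that passed the level filter (grey) and number at least 4-fold higher in the endothelial cells of both libraries (dark). The dark bars come close to the grey ones in lists whose genes mostly fell below the filter in the other cells. Examples are 20 of 20 pan-endothelial genes, all but Pecam1 below it there, and 14 of 14 junction genes. Passing the filter then largely fixes the call.

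Markers of mural cells and fibroblasts gave few UMIs. The 7 mural cell genes gave 8 UMIs in 6 female cells (64.2 CPM against 12.7 in the other cells, a ratio of 5.06, 2.16 to 10.2) and 2 in male cells (25.4 against 15.8 CPM, 1.61, 0.193 to 5.92), with Pdgfrb, Cspg4 and Myh11 at 0, and Col1a1, Col1a2, Col3a1 and Lum of the fibroblast list gave 0 UMIs in both libraries. The genes called lower were led by Igkc (8 and 1 UMIs, 64.2 and 12.7 CPM against 5395 and 2489), Cd3d, Iglc2, S100a9 and Acp5. Cd3d, Iglc2 and Acp5 gave 0 UMIs, and S100a9, a neutrophil gene, 2 and 1. Of 5 macrophage genes 4 were called lower, 3 of them C1q genes used by the rule, and so were 3 of 5 T and NK genes and 3 of 3 B cell genes. Neither of the latter lists holds Cd3e or Cd79a, but the rule removed cells with UMIs of these, so low levels of the other T and B cell genes are partly set by the selection. Of 10 immediate early genes of dissociation stress that passed, 0 were called in either direction, and of 4 platelet genes 1 passed and 0 were called (Pf4, 10 and 3 UMIs).

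The sort was checked against Ptprc. It was at 257 CPM in the female endothelial cells (32 UMIs, interval 176 to 363) against 1096 CPM in the other cells, and at 114 CPM in the male ones (9 UMIs, 52.3 to 217) against 1047 CPM, ratios of 0.234 (0.160 to 0.331) and 0.109 (0.0500 to 0.208). The exclusion genes set part of this, since without them the ratios were 0.414 and 0.359. A Ptprc UMI was present in 7 of 31 female cells (22.6%) and 4 of 32 male cells (12.5%), against 84.3% and 77.1% of the other cells. With each cell thinned to 1000 UMIs, which 28 female and 23 male endothelial cells could reach, the shares were 10.7% (3 of 28) and 4.35% (1 of 23) against 57.2% and 52.0%, and without the exclusion genes 21.3% and 23.8%. Macrophages, which carry less Ptprc RNA than T and NK cells, still stood at 615 and 620 CPM. B cells stood at 573 and 496 CPM and T and NK cells at 1524 and 1576. With the leukocyte-gene-high cells described next included, 3 of the 20 pan-leukocyte genes were called lower (Ptprc, Rac2 and Cd37) and 0 higher, with a median log2 ratio of -1.44 in females and -1.78 in males. The surface protein was not measured in these counts.

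The Ptprc UMIs were not spread evenly over the endothelial cells. Cells were divided by 19 other pan-leukocyte genes (such as Cd52, Laptm5 and Coro1a, without Ptprc) at the 5th percentile of the other cells of the library, 60.4 UMIs per 10000 in females and 47.0 in males. Above it lay 7 cells in each library. The 7 female cells held 30 of the 32 Ptprc UMIs (641 CPM), and the other 24 held 2 (25.7 CPM). The 7 male cells held 8 of the 9 (286 CPM), and the other 25 held 1 (19.7 CPM). The pan-endothelial genes of the rest were at 11858 and 17214 CPM, against 2477 and 8182 CPM in the leukocyte-gene-high cells. Without those 14 cells the Ptprc ratio to the other cells was 0.0235 in females and 0.0189 in males. Ptprc is a leukocyte gene like the 19 that set the cut, so these low ratios are partly set by the division.

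The leukocyte-gene-high cells differed between the libraries. In females they were deep (median 5953 UMIs) and thin in endothelial UMIs, with a median of 4 UMIs of the 4 rule genes and 9 of the pan-endothelial genes, and they held 61 of the 63 UMIs of T and NK genes found in the female endothelial cells. A pair of them gave 57 and 49 UMIs of Ccl5, a chemokine of T and NK cells. Another had 3 UMIs of Kdr and none of the 20 pan-endothelial genes, with 190 UMIs of Cd74 and 42 of Cxcl10 among 15657. In males their median depth was 2080 UMIs, with medians of 19 rule-gene and 31 pan-endothelial UMIs, and 2 UMIs of T and NK genes. In 1 of them Cd74 gave 168 UMIs beside 33 rule-gene UMIs. A doublet score removed 0 of the 63 cells. It took out a number of top-scored cells fixed in advance, so this does not decide whether leukocytes shared droplets with these cells. That was not tested.

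**Figure D3:**
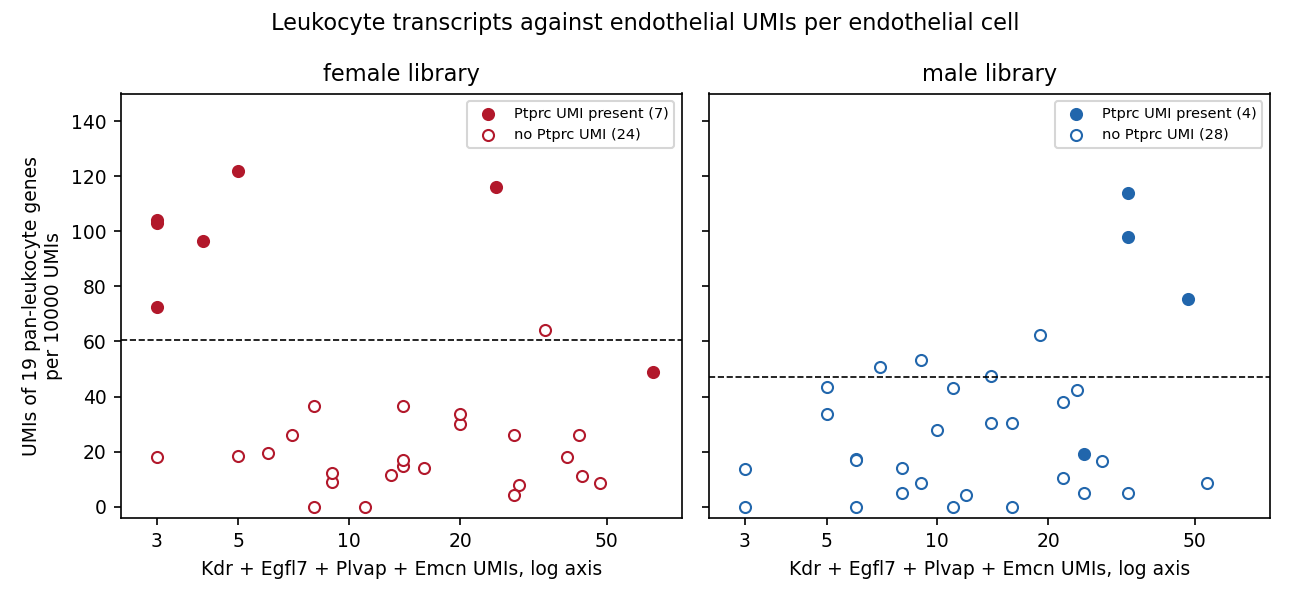
UMIs of 19 pan-leukocyte genes per 10000 UMIs against the summed UMIs of the 4 rule genes (log axis) in each endothelial cell, filled where a Ptprc UMI was present, with the dashed line at the 5th percentile of the other cells. Most Ptprc-positive cells, 6 of 7 in females and 3 of 4 in males, lie above the line, and 5 of those 6 female cells have 3 to 5 UMIs of the rule genes.

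Adrenal cortical transcripts were measured next. A list of 15 genes of steroid-producing cells gave 343 UMIs in 21 of 31 female endothelial cells (2753 CPM, 2469 to 3060) and 88 UMIs in 23 of 32 male ones (1119 CPM, 897 to 1379), against 170 and 230 CPM in the other cells. A single cell made most of the female signal. It held 292 of the 343 UMIs (85.1%), which was 1.38% of its 21186 UMIs, the greatest depth among the endothelial cells. In it Hsd3b1 gave 99 UMIs, Cyp21a1 73 and Cyp11a1 48, enzymes of steroid synthesis, and Mc2r, the ACTH receptor, gave 19. It also held 6 Kdr, 8 Egfl7, 7 Plvap and 7 Emcn UMIs, 34 pan-endothelial UMIs and 0 of Ptprc. The highest male cell held 32 of 88 UMIs (36.4%) among 2356, with Fdx1 at 10 and Star, the cholesterol carrier, at 7. The mitochondrial share was 8.07% in the highest female cell and 11.6% in the highest male cell, against endothelial medians of 3.23% and 3.34%. A 5% ceiling on that share removes both of these cells. The cortical level was then lower in both libraries, as given at the end, with their removal as part of the fall. The part of RNA quality was not tested.

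Without the highest cell of each library the list stood at 493 CPM in females (51 UMIs, 367 to 649) and 734 CPM in males (56 UMIs, 554 to 953). That was 6.26-fold (4.60 to 8.35) and 9.62-fold (7.06 to 12.9) the level in T and NK cells, 78.8 and 76.3 CPM. The T and NK level was made up largely of Fdx1 (38.3 and 35.5 CPM) and Fdxr (18.9 and 18.5 CPM), mitochondrial electron carriers that were at a like level in the other cells (37.8 and 45.8 CPM, and 18.8 and 22.2 CPM). For 5 steroid synthesis genes alone (Star, Cyp11a1, Cyp11b1, Cyp21a1 and Hsd3b1) T and NK cells held 17.2 and 16.1 CPM. Without the highest cell the endothelial cells held 213 and 406 CPM of these, 12.4-fold (7.45 to 19.6) and 25.3-fold (15.7 to 40.2) higher, while macrophages held 240 and 174 CPM. After thinning, a UMI of the 5 genes was present in 14.3% (4 of 28) and 26.1% (6 of 23) of endothelial cells, against 1.02% and 1.74% of T and NK cells and 17.6% and 14.5% of macrophages. Of the whole list macrophages held 379 and 331 CPM and B cells 106 and 323, but 1 male B cell held 186 of the 284 UMIs behind the last value. The female macrophage level lay within the endothelial interval without the highest cell, 367 to 649 CPM. The male macrophage level lay below the corresponding 554 to 953 CPM. Over the whole list, after thinning to 1000 UMIs, a cortical UMI was present in 42.9% of female (12 of 28) and 43.5% of male (10 of 23) endothelial cells, against 5.98% and 7.98% of T and NK cells and 27.5% and 24.8% of macrophages. Unthinned, the shares were 67.7% and 71.9% at median depths of 2383 and 1840.5 UMIs, against 25.1% and 26.2% in T and NK cells at 3985 and 4359. Scarb1 of this list, which is also an HDL receptor of endothelial cells, gave 18 UMIs in 11 female and 13 in 10 male cells. The cells with the most cortical UMIs held 4 and 0 of these. Star gave 22 and 17 UMIs in 8 and 7 cells. The 7 medullary genes, including Th and Chga, gave 0 UMIs, which allows up to 29.6 and 46.9 CPM, while the other cells held 10.3 and 10.2 CPM, and a difference was not detectable at this depth.

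**Figure D4:**
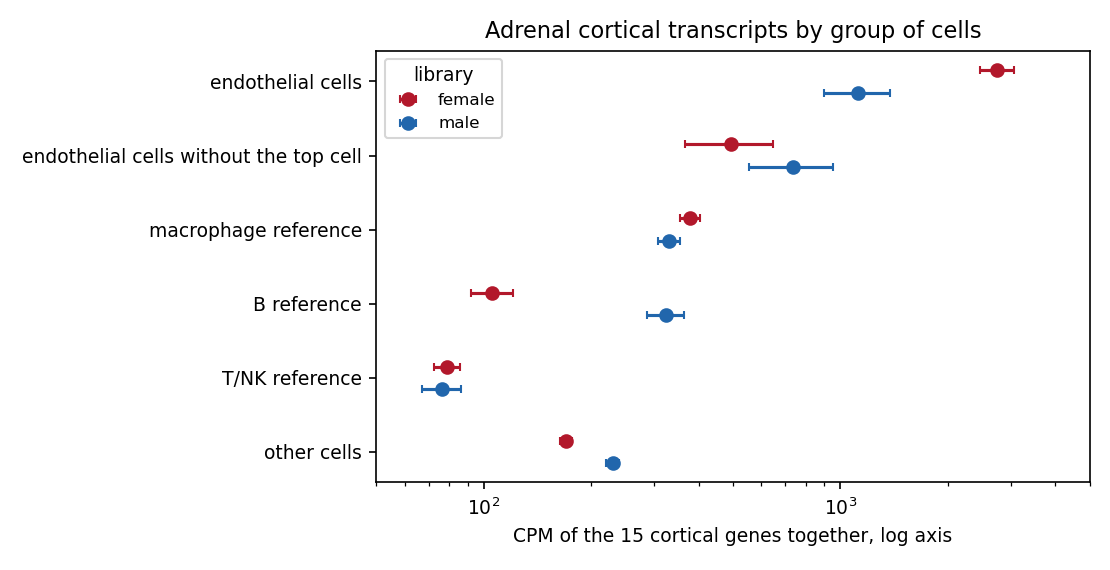
Summed level of 15 adrenal cortical genes (CPM, log axis, exact Poisson 95% intervals) by group of cells in the female and male library. The endothelial cells stand highest, at 2753 and 1119 CPM. Once the cell with the most cortical UMIs is left out of each library they stand at 493 and 734 CPM. Their female interval then takes in the macrophage level of 379 CPM.

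The endothelial cells divided by genes of sinusoidal scavenger endothelium. Of 11 such genes 11 passed the filter and 7 were called higher, and of the 5 that reached it in the other cells alone, 1 was (Fcgr2b). Stab2 (stabilin 2), Clec4g, Dnase1l3 and Oit3 are known from the sinusoids of the liver. At least 2 of these 4 genes were detected in 7 female and 10 male cells, 17 of 63, and at most 1 in the others, of which 22 of 24 and 20 of 22 had 0 UMIs of all 4. This division was made after seeing the values. The 17 cells held 16 and 35 UMIs of Stab2, 21 and 25 of Clec4g, 35 and 46 of Dnase1l3, and 8 and 23 of Oit3. The remaining 46 cells held 0 UMIs of Stab2, Clec4g and Dnase1l3, and 4 and 2 of Oit3. Their median depths were 1421 and 1757.5 UMIs against 2808.5 and 2022 in the other endothelial cells. At least 2 of the 4 genes were found in 0.291% of female and 0.364% of male cells outside the endothelial rule, and their summed level was 2.97 and 3.71 CPM in T and NK cells and 25.0 and 62.9 CPM in macrophages.

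Genes that the division did not use followed it. Fcgr2b, an Fc receptor that clears immune complexes, gave 55 UMIs in 7 of the 7 female cells and 58 in 8 of the 10 male cells, against 1 and 4 UMIs in the other endothelial cells. The transcription factor Maf gave 52 and 62 UMIs, present in all 17 cells, against 19 and 9, a ratio of levels of 28.1 (16.3 to 50.3) and 20.5 (10.1 to 46.9). The mannose receptor Mrc1 gave 26 and 30 against 12 and 3, 22.2- and 29.8-fold. These 3 genes are also expressed by macrophages. The C1q genes were capped by the rule and say nothing here. The macrophage genes outside the rule, Csf1r and Adgre1, gave 1 and 0 UMIs in the 7 female cells and 2 and 0 in the 10 male cells, Ptprc gave 0, and the part of macrophage RNA in these genes was not tested. The receptor Gpr182 gave 21 and 36 UMIs against 12 and 11 (18.0- and 9.74-fold), Bmp2 13 and 26 against 6 and 1 (22.2- and 77.4-fold), and Gata4, a factor of liver sinusoidal identity, 7 and 6 against 0 and 0. Lyve1 gave 13 and 10 UMIs in 4 and 2 of the cells, and 0 in all other endothelial cells. Since the other endothelial cells included the leukocyte-gene-high cells and the cortical-rich female cell, the ratios were also taken without them, an alternative chosen after seeing the data, between 7 and 16 female and 9 and 16 male cells. Fcgr2b then gave 55 and 54 UMIs against 0 and 0. Maf was 16.4-fold (8.83 to 32.9) and 29.6-fold (9.58 to 148) higher, Mrc1 9.72- and 16.3-fold, Gpr182 9.59- and 9.59-fold, and Bmp2 17.8- and 45.3-fold. Kdr was 2.50- and 2.01-fold higher in all cells, but 1.33-fold (0.856 to 2.01) and 1.77-fold (1.23 to 2.54) without those cells. Nr2f2 went from 2.47- and 4.02-fold to 1.48-fold (0.723 to 2.87) and 3.22-fold (1.57 to 6.88), and Cdh5 from 5.33- and 2.06-fold to 3.00-fold (1.76 to 5.06) and 1.46-fold (0.834 to 2.54).

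Other genes took the opposite side. Plvap, the diaphragm protein, gave 3 and 6 UMIs in the 17 cells against 123 and 98 in the rest, ratios of 0.250 (0.0509 to 0.749) and 0.182 (0.0653 to 0.411), and of 0.120 (0.0243 to 0.360) and 0.190 (0.0669 to 0.441) without the leukocyte-gene-high and cortical-rich cells. Emcn gave 6 and 8 against 181 and 143, ratios of 0.340 (0.123 to 0.755) and 0.166 (0.0705 to 0.337), or 0.169 and 0.157 without those cells. Plvap and Emcn were part of the endothelial rule, so cells that lack both were admitted by Kdr or Egfl7 and cells poor in all 4 were missed. Igfbp5, a secreted binding protein of insulin-like growth factors, gave 0 and 2 against 63 and 212. Fabp4 gave 20 and 36 against 394 and 407, ratios of 0.521 (0.315 to 0.815) and 0.263 (0.182 to 0.370), and of 0.251 (0.152 to 0.395) and 0.178 (0.123 to 0.252) without those cells. Cd74 gave 2 and 8 UMIs against 240 and 221, but 232 of the 242 female and 206 of the 229 male UMIs were in the leukocyte-gene-high cells, and without those and the cortical-rich cell the ratios were 1.03 (0.106 to 5.15) and 0.763 (0.265 to 1.96). Cd36 and Gpihbp1 depended on which cells were counted. Cd36 gave 7 and 10 UMIs against 30 and 74, 2.39-fold (0.887 to 5.56) in females and 0.402-fold (0.185 to 0.782) in males, and without the leukocyte-gene-high and cortical-rich cells 1.31-fold (0.472 to 3.17) and 0.212-fold (0.0933 to 0.425). Gpihbp1 gave 7 and 25 against 60 and 83, with intervals of the ratio of 0.462 to 2.62 and 0.549 to 1.42, and without those cells the ratios were 0.564 (0.216 to 1.25) and 0.518 (0.306 to 0.844). The genes named for the division were described because they followed it, so their directions are no support for it.

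A further set stood out among the cells without those 4 genes. The 3 female cells with the most Fabp4 (117, 44 and 34 UMIs) and the 4 male cells with the most (85, 78, 36 and 29) had 0 UMIs of Plvap, 0 of Igfbp5 and 0 of the 4 sinusoidal genes. They carried Gpihbp1 (4, 8 and 7 UMIs in females, 24, 8, 10 and 2 in males) and Cd36, a fatty acid transporter (10, 6 and 2, and 12, 25, 29 and 1). The next cells in rank had 28 Fabp4 UMIs in both libraries and held Plvap, with 5 UMIs in the female and 27 in the male cell. These cells too were picked after seeing the values, and 1 of the 7, a female cell, held Ptprc and was leukocyte-gene-high. The male cell with 29 Fabp4 UMIs was shallow (726 UMIs) and met the endothelial rule by Egfl7 alone. The mitochondrial share of UMIs was high in these cells, from 4.88% to 13.03% in the female cells and from 9.30% to 13.6% in the male ones, against medians of 3.23% and 3.34% over all endothelial cells, and the male cell with 36 Fabp4 UMIs was the one with the most cortical UMIs (32). The part of RNA quality in this set was not tested.

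**Figure D5:**
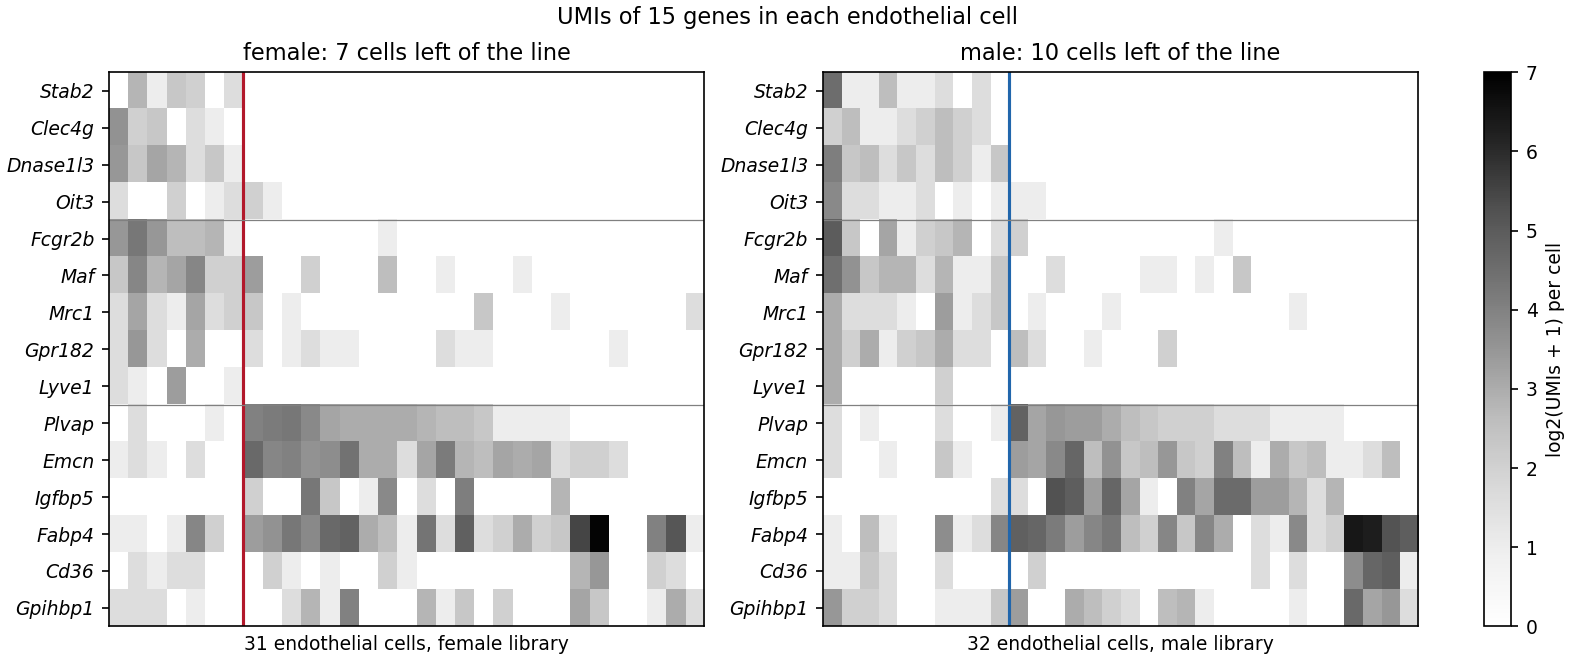
UMIs of 15 genes in each endothelial cell (columns, shaded by log2(UMIs + 1)) of the female and male library, ordered by how many of the 4 sinusoidal genes were detected, their sum and then Plvap. Cells left of the coloured line, 7 female and 10 male, carry Maf, in 7 and 8 of them Fcgr2b, and little Plvap, Emcn or Igfbp5, and the cells with the darkest Fabp4 squares at the right carry no Plvap.

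Female and male endothelial cells were compared as 1 sum against another, with no replicate check. Genes averaging at least 20 CPM over both sums were compared, and a ratio of at least 2, with 10 CPM added, was called. Of 7166 genes, 979 were called higher in females (13.7%) and 957 in males (13.4%). Counts and balance depended on the settings, with 446 and 351 without the exclusion genes, 317 and 472 with a filter of 50 CPM, and 220 and 222 with 50 CPM added. Pan-endothelial genes were higher in CPM in males in 19 of 20 cases, with 6 called higher in males and 0 in females. When the leukocyte-gene-high cells and the cortical-rich female cell were left out (23 female and 25 male cells), the sums were 15698 and 17214 CPM, a ratio of males to females of 1.10 (0.998 to 1.21) in place of 1.68 (1.54 to 1.83), and 2 genes were called higher in males.

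Sex-linked genes were set aside. Among the 5 remaining genes farthest apart by their counting intervals towards females, 4 rested on such cells. Cyp21a1 gave 75 UMIs against 1, but 73 came from the cortical-rich cell, as did the 31 UMIs of Meg3, a noncoding RNA, against 0. Of 43 Cxcl10 UMIs against 0 in males, 42 came from 1 leukocyte-gene-high cell, and of 115 Ccl5 UMIs against 5, 57 and 49 came from a pair of such cells. In the 23 and 25 cells left, Cyp21a1 gave 2 and 1 UMIs, Ccl5 4 and 3, and Cxcl10 and Meg3 0 and 0. Stmn1, a tubulin regulator of dividing cells, gave 34 UMIs in 7 female cells against 0 in males, and 21 in 5 cells against 0 in the cells left. The 8 proliferation genes, Stmn1 included, gave 83 UMIs in 8 female cells and 2 in 2 male cells. Cells with 25, 19, 17 and 12 UMIs made 73 of the 83, and the first of these was the cortical-rich cell. In the cells left there were 51 UMIs in 5 female cells and 1 in a male cell. With 2 UMIs in males these genes could pass the level filter only by their level in females, so that 7 of the 7 compared, and 5 of 6 in the cells left, were called higher in females is no support for a difference.

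On the male side Igfbp5 and Npr3 were less concentrated in single cells than Cd36, Iigp1 and Chil3. Igfbp5 gave 214 UMIs in 17 of 32 male cells (2721 CPM) against 63 in 8 of 31 female cells (506 CPM), 5.38-fold higher, and in the cells left it gave 118 UMIs in 11 cells against 43 in 5, 3.06-fold. Npr3, the clearance receptor of natriuretic peptides, gave 21 UMIs in 12 cells against 4 in 2 (8.32-fold), and 16 against 3 in the cells left. Cd36 gave 84 UMIs against 37 (3.60-fold), and in males cells with 29, 25 and 12 UMIs made most of it. A mitochondrial ceiling of 5% removes those male cells, and the direction of Cd36 then turned, to a log2 ratio of females to males of 0.79. Iigp1, an interferon-induced GTPase, gave 22 UMIs in 8 cells, 10 of them in a single cell, against 4 in 3. Chil3, a gene of monocytes and neutrophils, gave 25 UMIs against 7, all 25 in a pair of leukocyte-gene-high male cells, and all 7 female ones in leukocyte-gene-high cells. Whether any of these differences lay beyond the spread between animals cannot be told from 1 library per sex.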

How the data were processed

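The 2 libraries held sorted adrenal CD45+ cells of female and male mice. The deposited values were raw UMI counts per gene and barcode, which the authors made with Cell Ranger 4.0.0 (file header) on build mm10 (submitters' processing notes), after removing barcodes of noise along the rank curve. Replicate labels were not given, and the number of animals per library was not stated.

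Barcodes with at least 200 genes and at most 15% mitochondrial UMIs were kept. Taken as a percentage of UMIs, the 1.2% ceiling in the study's methods would keep 327 female and 359 male barcodes. These held 1 and 3 of the endothelial cells. The paper reports far more cells left after its filters, so the scale of its ceiling could not be settled and it was not used. The libraries shared 2 barcodes, 0 of them endothelial. Doublets were not removed. As an alternative, Scrublet in scanpy 1.11.5 at 0.8% per 1000 barcodes, took out 117 female (3.07%) and 50 male (2.00%) cells. Reference groups were other kept cells with at least 3 UMIs of the T/NK or B marker lists. For macrophages at least 10 UMIs of C1qa, C1qb and C1qc together were required. Cells meeting more than 1 of these criteria were left out.

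Counts were summed per library and group and given as CPM with exact Poisson intervals, ratios with exact conditional binomial intervals and shares with exact (Clopper-Pearson) intervals, all at 95%. No test was possible. The floor for a count of 0 is the upper Poisson bound. The comparison with other cells used genes averaging 20 CPM over 4 sums, 10 CPM added and a 4-fold threshold in both libraries, and the comparison of sexes 20 CPM over 2 sums and a 2-fold threshold. Genes were named by rule: the genes of the selection, the 15 whose smaller lower bound of the ratio over both libraries was highest, the 5 lowest, 5 each way between sexes with at least 20 UMIs and no sex-linked gene, and genes of the lists. In shares, cells were thinned to 1000 UMIs. The selection and the 27 gene lists were chosen with earlier results of these data known. The 19-gene leukocyte level and the 4-gene sinusoidal division, first tried as at least 3 UMIs and then set to at least 2 genes, were chosen after seeing the data. The list gene Ccl21a was dropped for its ambiguous symbol. The sums were tested on simulated counts. Python 3.11.15, numpy 2.4.6, scipy 1.17.1, pandas 2.3.3 and matplotlib 3.10.9 were used.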

Additional observations from a re-analysis of the deposited data

Results flagged for a closer look

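Among the 146 female barcodes that the cell filter removed, 6 met the endothelial rule (4.11%, exact binomial 95% interval 1.52 to 8.73%), with mitochondrial shares of 16.1 to 32.5%, and 2 of 183 did in the male library. They enter none of the comparisons above.

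The ratio of Stmn1 to the other cells was 3.03 in the female endothelial cells (34 UMIs in 7 cells, of which single cells gave 14 and 12) and 0 in the male ones (0 UMIs), so that the direction differed between the libraries. The difference between libraries was not tested.

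The ratio of Chil3 to the other cells was 0.420 in females (7 UMIs) and 3.33 in males (25 UMIs, 15 and 10 of them in 2 cells with many leukocyte transcripts). This difference was not tested either.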

How the results depend on the processing

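Over 22 settings, 181 of 227 values behind the comparisons stayed within 1.5 times or within their counting interval and 46 moved. A change of direction was looked for in the Ptprc ratios alone, and none of them had one. The balance of the counts between the sexes did depend on the settings, as given above. Of the named genes, 456 of 480 values stayed and 4 reversed. At a 5% mitochondrial ceiling, which removes the highest cortical cell of each library, the cortical level was 491 CPM in females and 514 in males. Cd36 became higher in females (log2 0.79). With at least 2 UMIs of the rule genes the female Ptprc ratio was 0.332 and the female cortical level 2295 CPM. With at least 6 these were 0.0419 and 3816, the thinned female Ptprc share was 0%, and 194 genes were lower. With 2 of the 4 genes required the female cortical level was 3199 CPM. With no C1q UMI allowed the male share was 0.839%, 143 genes were lower, cortical levels were 429 and 1447 CPM, the thinned male Ptprc share was 0% and Cyp21a1 turned to males (-1.53). Without any exclusion gene the shares were 1.36% and 2.04%, 54 genes were lower, 446 and 351 genes were called for females and males, Ptprc ratios were 0.414 and 0.359, cortical levels 1739 and 757 CPM, the thinned male Ptprc share 23.8%, and Acp5 (0.41) and Chil3 (0.051) reversed. Adding 1 CPM gave 154 lower genes. Adding 50 CPM gave 117 higher and 21 lower genes, 38 genes of the vessel lists, and 220 and 222 between the sexes. With per-cell shares averaged, 188 genes were lower, the female Ptprc ratio was 0.135 and the female cortical level 1044 CPM. A 50 CPM filter gave 317 and 472 genes between the sexes. Without the 2 cells of each library richest in cortical UMIs the levels were 445 and 643 CPM. Chosen after seeing the data, leaving out the richest cell gave 493 and 734 CPM. Leaving out the leukocyte-gene-high cells gave 338 lower genes, Ptprc ratios of 0.0235 and 0.0189, cortical levels of 4270 and 1599 CPM and thinned Ptprc shares of 0% and 0%. The cause was not tested in any of these cases beyond the change of cells or scale itself. The 4-gene division gave 7 to 9 female and 9 to 12 male cells under its alternatives. The 1.2% ceiling, taken as a percentage of UMIs, was not run, as 1 and 3 cells were left. No paired analysis was possible because the labels give no replicate numbers and each sex has 1 library. Depth limits genes near 20 CPM, where the sum over the endothelial cells of a library holds a few UMIs.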
